A study of Mus musculus with 13 samples.

Results

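The untreated proximal small intestine was described from 8 control mice, each measured on its own array. The arrays were chosen by their labels alone, as all arrays of mice on regular chow, and made up 8 of the 13 arrays of the series. A probe was taken as expressed where its detection p-value was under 0.05 on all 8 arrays, which held for 9098 of 25697 probes (35.4%). The controls were male C57BL/6J mice, and the labels give no age. The series set these mice against 5 mice whose chow held 0.005% ezetimibe, a cholesterol absorption inhibitor, and the 2 diets were not compared here. Total RNA extracted with TriReagent was converted to biotinylated cRNA and hybridised to MouseRef-8 v2.0 BeadChips, 1-colour arrays read as 1 signal per probe. Per the labels each array is a biological replicate. No mouse was measured on more than 1 array, so differences between mice and differences between arrays cannot be told apart.

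The proximal small intestine digests and absorbs most nutrients. Its villi are lined by enterocytes, which carry hydrolases and transporters on a brush border and pack dietary fat into chylomicrons. Goblet, Paneth, enteroendocrine and tuft cells lie among them, stem cells divide in the crypts, and lymphocytes sit within the epithelium. Whole tissue also holds muscle, vessels, nerves and connective tissue, and the exocrine pancreas and the stomach border the duodenum.

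The level of a probe is the mean of its normalized log2 signal over the 8 controls, and its spread is the SD between mice within a slide, pooled over the 2 slides of 4 control arrays (6 degrees of freedom). Between 11085 and 12380 probes were detected per array. The median signal before normalization was 120.7 to 123.3 on slide 2 and 147.6 to 152.8 on slide 1. Pearson's r across probes was 0.976 to 0.989 between arrays of the same slide and 0.948 to 0.967 between arrays of different slides, with probes and not mice as the points. A further 7180 probes were detected on 1 to 7 arrays and 9419 on none. At the edge of the rule, 748 probes were detected on 7 arrays, and the lowest level among the probes on all 8 was 5.0. Probes bind with different strength, so the order of levels is an order of probe signals and not of transcript amounts. An undetected probe does not show an absent transcript, since 883 of 5071 genes with several probes had a probe on all 8 arrays and another on none. With 8 arrays, the precision of each level and SD is limited by their number.

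The labels were checked against marker genes. Y-linked probes of Ddx3y (9.28 ± 0.281, within-slide SD, n = 8) and Eif2s3y (6.37 ± 0.246) were detected on all 8 arrays, and the probe of Xist, the X-inactivation transcript, on 1. Other probes of Ddx3y were detected on none, and the probe of Kdm5d, also Y-linked, on 3. Of 9 genes listed as highest in the proximal small intestine, 7 were detected on all 8 arrays. They included Slc40a1 (13.68 ± 0.113), the iron exporter, Onecut2 (11.15 ± 0.24) and Pdx1 (9.79 ± 0.155), transcription factors, and Gata4 (6.87 ± 0.29), which maintains jejunal identity. The probes of Fabp1 and Bco1 were detected on none. Of 13 genes listed for the distal small intestine and colon, Slc10a2, Fgf15, Hoxb13, Retnlb and Insl5 were among those detected on none and Fabp6, the ileal bile acid binding protein, on 4. A further 6 were detected on all 8, among them Slc51b (11.40 ± 0.265), a basolateral bile acid transporter subunit, and Guca2a (10.88 ± 0.231), guanylin. Among 14 hepatocyte genes, 2 were detected on all 8 arrays, 6 on some and 6 on none. Those on none were Alb, Fga, Fgb, Apoh, Tat and Serpina3k. Cps1 (11.36 ± 0.18), a urea cycle enzyme also used by enterocytes, was among the 2 on all 8.

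The 9098 expressed probes stood for 7092 of the 17873 genes with a probe. Their levels had a median of 7.81, quartiles of 6.52 and 9.33 and a maximum of 14.81. The 20 genes with the highest probe levels fell into a few functions. Ubb (ubiquitin, 14.81 ± 0.044) and Atp5b (the catalytic beta subunit of ATP synthase, 14.80 ± 0.073) came first. Secreted and mucosal proteins followed with Reg1 (a secreted lectin of the regenerating family, 14.78 ± 0.034), Zg16 (a mucus lectin of goblet cells, 14.71 ± 0.063) and Prap1 (14.63 ± 0.079). Fat transport was represented by P4hb (protein disulfide isomerase, a subunit of the microsomal triglyceride transfer protein, 14.63 ± 0.069), Dbi (the acyl-CoA binding protein, 14.62 ± 0.14), Apoa1 (14.58 ± 0.047) and Apoa4 (14.57 ± 0.097), the apolipoproteins of chylomicrons. Translation and energy were represented by Rpl41, Rplp1, Rpl38 and Eef1a1 and by Ckmt1, Ckb and Atp5g3, all with levels of 14.34 to 14.72. Fth1, the ferritin heavy chain, Tmbim6, an inhibitor of cell death, Gm3839 and Ubb-ps, a ubiquitin pseudogene whose signal cannot be told apart from that of Ubb here, completed the 20. All 20 stayed among the 20 highest under each other processing that was tried with all 8 arrays, and 19 or 20 did when an array was left out.

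These probes differed little between mice. Apoa4, for instance, read 14.75, 14.63, 14.79, 14.75, 14.32, 14.36, 14.36 and 14.58 in controls 1 to 8, and Zg16 read 14.63, 14.49, 14.63, 14.61, 14.75, 14.88, 14.83 and 14.88. For Apoa4 the slide 2 arrays were all below the slide 1 arrays, and for Zg16 they were all above. Quantile normalization sets the highest values of every array equal, so small spreads at this end also reflect that scale. Reg1 had the highest signal of all probes on each array of controls 5 to 8, so this normalization gave it the same value, 14.94, there.

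Genes of nutrient absorption had high probe levels. Medians of gene lists are over the brightest probe of each gene. The median of 7.81 and the percentiles are over all expressed probes, dimmer probes of the same genes included, so lists tend to lie higher. Of 9 genes for apolipoproteins and chylomicron assembly, 8 were detected on all 8 arrays, with a median level of 13.42 against 7.81 over all expressed probes and a median percentile of 98.8. Below P4hb, Apoa1 and Apoa4, named above, they ran from Apoc3 (14.08 ± 0.143), an inhibitor of lipoprotein lipase, through Sar1b (12.75 ± 0.141), the GTPase that carries chylomicrons out of the endoplasmic reticulum, and Mttp (11.30 ± 0.152), which loads lipid onto apolipoprotein B, to Apoc2 (9.77 ± 0.285). Upstream of them, Acsl5 (14.20 ± 0.085), which activates fatty acids, Mogat2 (12.14 ± 0.129) and Dgat2 (12.29 ± 0.187), which rebuild triglyceride, were among 13 of 16 genes of fatty acid uptake and triglyceride synthesis detected on all 8. The probes of Fabp1, Fabp2 and Cd36 were detected on none. None of these 21 members reached an SD of 0.5, which 3.39% of all expressed probes did. At that share so few members would often hold none.

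Brush border genes formed the next group. Of 17 hydrolases, 14 were on all 8 arrays with a median level of 11.66, among them Sis (sucrase-isomaltase, 13.67 ± 0.201), Akp3 (intestinal alkaline phosphatase, 13.29 ± 0.449), Tmprss15 (enteropeptidase, the activator of trypsinogen, 12.66 ± 0.193), Anpep (aminopeptidase N, 12.42 ± 0.463) and Dpp4 (11.99 ± 0.18). Of 18 structural genes, 15 were on all 8 with a median of 11.75, led by Cdhr5 (14.03 ± 0.133), a cadherin that links neighbouring microvilli. The one structural member past an SD of 0.5 was Myo1a, the brush border myosin, at 9.11 ± 0.537. It read 8.73, 9.80, 8.76, 9.46, 8.41, 8.80, 9.27 and 9.66 in controls 1 to 8, highest in controls 2 and 4 of slide 1 and in controls 7 and 8 of slide 2.

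Transporters followed. Of 10 genes of sugar transport and fructose use, 8 were on all 8 arrays, among them Khk (ketohexokinase, 12.74 ± 0.164) and Slc5a1 (the sodium-glucose cotransporter, 11.42 ± 0.305). The probe of the fructose transporter Slc2a5 was detected on none. Of 11 sterol transport genes, 8 were on all 8, including Abcg5 (12.80 ± 0.141) and Abcg8 (11.53 ± 0.263), the partners of the sterol export pump, Soat2 (11.10 ± 0.358), which esterifies cholesterol, and Npc1l1 (10.71 ± 0.225), the sterol uptake protein that ezetimibe binds. The mean slide-adjusted level of the 8 ran from 9.25 to 9.40 over the 8 mice. A mean hides the spread of its members, whose median SD was 0.214, against 0.203 over all expressed probes. Slide-adjusted values are normalized values with each slide's mean moved to the mean of both slides. The 12 detected cholesterol synthesis enzymes had a median level of 7.5, at the 44.2 percentile of expressed probes, with Fdps (10.19 ± 0.218) the brightest.

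Iron, calcium and vitamin genes held some of the few absorptive genes that differed between mice. Of 20, 17 were on all 8 arrays, among them Rbp2 (cellular retinol binding protein, 13.17 ± 0.096), Vdr (the vitamin D receptor, 12.44 ± 0.072) and Slc46a1 (the folate transporter, 12.08 ± 0.139). Cybrd1, the duodenal ferric reductase, read 7.95, 6.23, 6.90, 7.21, 7.28, 7.70, 6.55 and 6.01 in controls 1 to 8 (SD 0.735), high in controls 1 and 6 and low in controls 2 and 8. S100g, the calcium binding protein calbindin-D9k, read 5.84, 6.72, 6.84, 6.80, 5.97, 7.39, 6.98 and 6.19 (SD 0.579), lowest in control 1 on slide 1 and control 5 on slide 2. Lrat, which esterifies retinol, had an SD of 0.609. None of 20 detected detoxification enzymes (median level 11.35, led by Cyp4f14 at 13.49 ± 0.139) reached an SD of 0.5, against 3.39% of all expressed probes. At that share a short list would often hold none. Their median SD was 0.242, against 0.203 over all expressed probes, so these genes were not more even than others.

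**Figure D1:**
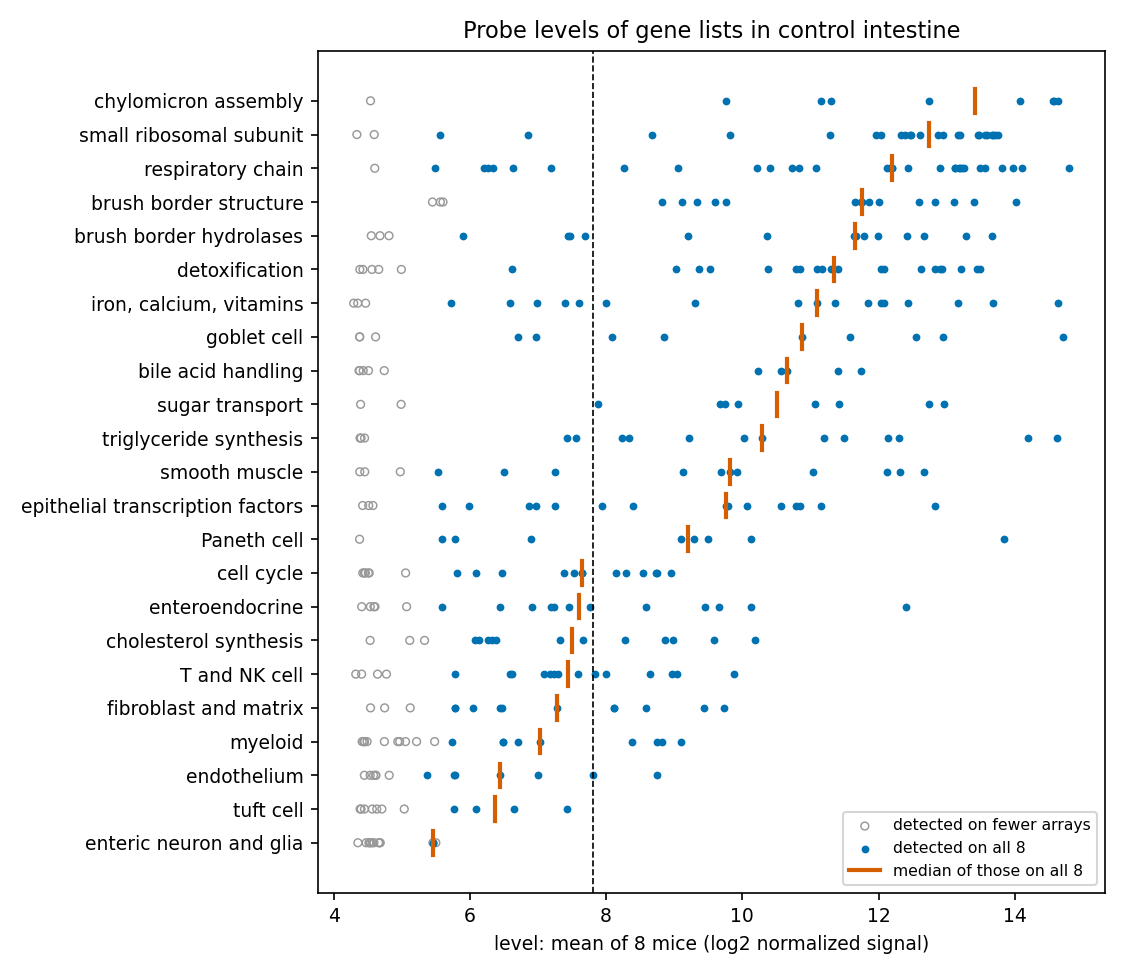
Each row is a gene list and each point the brightest probe of a member, placed at its mean normalized log2 signal over 8 control mice. Filled points were detected on all 8 arrays and open points on fewer. The vertical bars are medians of the filled points, and the dashed line is the median of all 9098 expressed probes, 7.81. Chylomicron assembly (median 13.42), ribosomal and respiratory chain genes lie at the top and enteric neuron and glia genes (5.46) at the bottom.

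The secretory and other cell types of the wall were detected to different extents. Over all genes with a probe, 7092 of 17873 were detected on all 8 arrays. Of 12 goblet cell genes, 9 were on all 8 arrays, among them Clca1 (12.95 ± 0.356), Spink4 (12.55 ± 0.083) and Tff3 (the goblet cell trefoil peptide, 11.58 ± 0.232). Of 17 enteroendocrine genes, 12 were on all 8, led by the hormone genes Sct (secretin, 12.40 ± 0.332), Ghrl (ghrelin, 10.12 ± 0.399) and Cck (cholecystokinin, 9.45 ± 0.224). Pyy, peptide YY, was the only one past an SD of 0.5 and read 8.01, 8.01, 8.47, 7.90, 7.45, 8.48, 6.97 and 6.75 in controls 1 to 8. Its spread lay on slide 2, where controls 7 and 8 were lowest. Smooth muscle genes had 11 of 14 members on all 8 (Acta2 at 12.67 ± 0.195), fibroblast and matrix genes 11 of 14 (Bgn, a proteoglycan, at 9.74 ± 0.364) and endothelial genes 7 of 13 (Plvap at 8.74 ± 0.402). No member of these 3 lists reached an SD of 0.5, against 3.39% of all expressed probes, a share at which short lists would often hold none. Their median SDs were 0.216, 0.315 and 0.340, against 0.203 over all expressed probes. In whole tissue fewer cells of a type and less RNA per cell cannot be told apart.

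Tuft cell genes had 4 of 11 members on all 8 arrays, near the share over all genes with a probe (7092 of 17873). Of these 4, Trpm5 and Avil were past an SD of 0.5, against 3.39% of all expressed probes. Trpm5, the taste transduction channel of tuft cells, read 5.57, 5.17, 5.91, 5.86, 5.75, 7.09, 5.62 and 5.17 in controls 1 to 8. Control 6 was the highest mouse for all 4, and the mean slide-adjusted level of the list was 7.40 in control 6 and 6.04 to 6.72 in the other 7 mice.

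The spread between mice was small for most probes. The within-slide SD had a median of 0.203 and quartiles of 0.147 and 0.278 on the log2 scale. It fell with level, with medians of 0.255, 0.222, 0.184 and 0.150 from the lowest to the highest of 4 equal groups by level. A probe was called variable at an SD of 0.5 or more, which 308 of 9098 probes (3.39%) for 273 genes reached, and 41 of them reached an SD of 1. At the edge of this limit lay Avil (0.502) inside it and 1 probe of Trex1 (0.498), named after its value was seen, outside it. Another probe of Trex1 had an SD of 0.608. Another 156 probes detected on only some arrays also had an SD of 0.5 or more. The count depended on the scale: 93 probes reached 0.5 without background correction and 49 in the authors' deposited processed values.

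The least variable probes in the highest of these 4 groups included those of BC040758 (SD 0.016), Mon2 (0.026), Slc35c1 (0.031), Cox6b1 (0.033, a cytochrome oxidase subunit), Reg1, Rpl9, Ssu72, Taf10 and Liph. For Reg1 the equal values on slide 2 follow from quantile normalization, as given above. Liph, a lipase, read 9.91, 9.94, 9.88 and 9.97 in controls 5 to 8 on slide 2, and 9.35, 9.44, 9.42 and 9.40 in controls 1 to 4 on slide 1, so its mice differed less within a slide than the slides did. Another probe of Liph had an SD of 0.196 at a level of 8.72. The 31 respiratory chain genes on all 8 arrays had a median SD of 0.105, the lowest of the 47 gene lists, and their mean slide-adjusted level ran from 11.10 to 11.21 over the 8 mice. Their median level was 12.19, and SD fell with level. Divided by the running median of SD at their level, their SDs had a median of 0.9. The same ratio was 0.88 for the proteasome list and 0.8 for the neuron and glia list. It was 1.92 for the detoxification list, which had no variable member either.

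**Figure D2:**
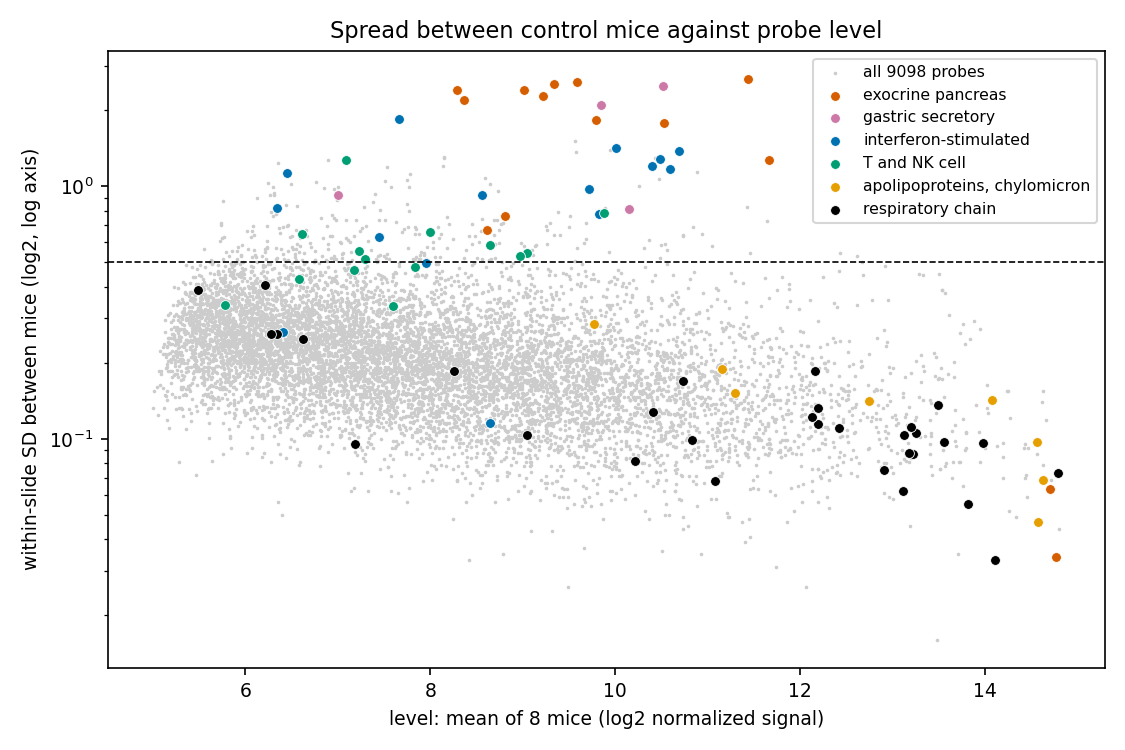
Every expressed probe is a grey point at its level (x, mean normalized log2 signal of 8 control mice) and its within-slide SD (y, log2 units on a log axis). Coloured points are the brightest probes of 6 gene lists, and the dashed line marks an SD of 0.5. Above the line lie 12 of 14 exocrine pancreas, all 4 gastric and 12 of 15 interferon genes, up to 2.67, and respiratory chain and chylomicron genes lie below it.

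Digestive enzymes of the exocrine pancreas varied most. Of 27 such genes with a probe, 14 were detected on all 8 arrays, with a median SD of 2.01. Of these 14, 12 were variable, against 3.39% of all expressed probes. The exceptions among the 14 were Reg1 and Zg16, which were among the highest levels, where small spreads also reflect quantile normalization. The intestine also makes both, and the reason for their small SDs was not tested. Cela2a, a pancreatic elastase, read 11.21, 10.48, 12.20, 14.27, 14.61, 9.99, 6.62 and 12.16 in controls 1 to 8 (SD 2.67). Pnlip, pancreatic lipase, read 9.14, 9.06, 10.79, 12.74, 12.52, 7.68, 4.91 and 9.89 (SD 2.60). Control 4 was the highest mouse of slide 1 and control 5 that of slide 2, and control 7 was the lowest of all. Clps, colipase, the cofactor of pancreatic lipase, had a smaller range, at 11.08, 11.21, 11.50, 13.58, 13.29, 11.16, 10.01 and 11.51. Pnliprp2, a lipase related to pancreatic lipase, had an SD of 0.766 and Klk1, a tissue kallikrein, one of 0.669.

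The same order of mice was seen among pancreatic genes that the detection rule left out. All 13 other members of the list were detected on 2 to 7 arrays, and 9 of the 10 largest SDs among probes on 4 to 7 arrays were of probes that only control 7 lacked. They were Cpa1, Ctrb1, Cela3b, Pla2g1b, Try5, Gm5409, Cpb1, Gp2 and Try10, of which Gm5409 was not in the list. Cpa1, carboxypeptidase A1, read 7.41, 6.86, 8.60, 11.60, 11.40, 5.87, 4.43 and 8.27 in controls 1 to 8, and Ctrb1, chymotrypsinogen B1, read 8.27, 7.99, 9.71, 12.01, 11.60, 6.37, 4.47 and 7.69. In both, controls 4 and 5 were again the highest and control 7 the lowest. Over the 14 members detected on all arrays the mean slide-adjusted level was 9.42, 9.28, 10.40, 12.09, 12.80, 9.53, 8.26 and 10.59. For Cela2a the highest slide-adjusted value was 255 times the lowest. Without control 7 the list had 22 variable members, since more of its probes were then detected on every array. The amount of pancreatic tissue in each sample was not measured.

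Gastric genes varied with another order of mice. Of 12 gastric secretory genes with a probe, 4 were detected on all 8 arrays and all 4 were variable, against 3.39% of all expressed probes. Tff2, the trefoil peptide of gastric mucous neck cells and of Brunner's glands, read 12.25, 6.56, 8.11, 11.29, 12.82, 11.72, 13.26 and 8.16 in controls 1 to 8 (SD 2.50). Gkn3, a gastrokine, read 10.30, 7.40, 7.28, 7.86, 13.13, 11.65, 13.40 and 7.77 (SD 2.09). Pgc, pepsinogen C, read 6.86, 6.40, 6.05, 6.40, 8.50, 7.47, 8.53 and 5.84 (SD 0.923). Control 1 was the highest mouse of slide 1 for these 3 genes, and on slide 2 controls 5 and 7 were high and control 8 low. Muc6, a gland mucin detected on 3 arrays, read 7.51 in control 5 and 6.97 in control 7, and at most 4.93 in the other 6.

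A second group of gastric genes was high in control 6 alone. Gkn1, a gastrokine of gastric surface cells, read 10.51 in control 6 and 4.25 to 4.89 in the other 7 controls. Gkn2, its partner, read 10.84 in control 6 and 4.29 to 4.57 in the others, and Muc5ac, the surface mucin, read 7.08 in control 6 and 4.29 to 4.61 in the others. LOC100041004, a probe with the name of the file kept, had the largest SD of those detected on 4 to 7 arrays (2.79) and read 13.07 in control 6 and 4.27 to 5.72 in the others. Ctse, cathepsin E, was also highest in control 6, at 11.86 against 9.20 to 10.74 in the other 7. The probes of Atp4a and Atp4b, the parietal cell proton pump, and of Gast, gastrin, were detected on no array. The part of stomach tissue in these values was not tested.

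**Figure D3:**
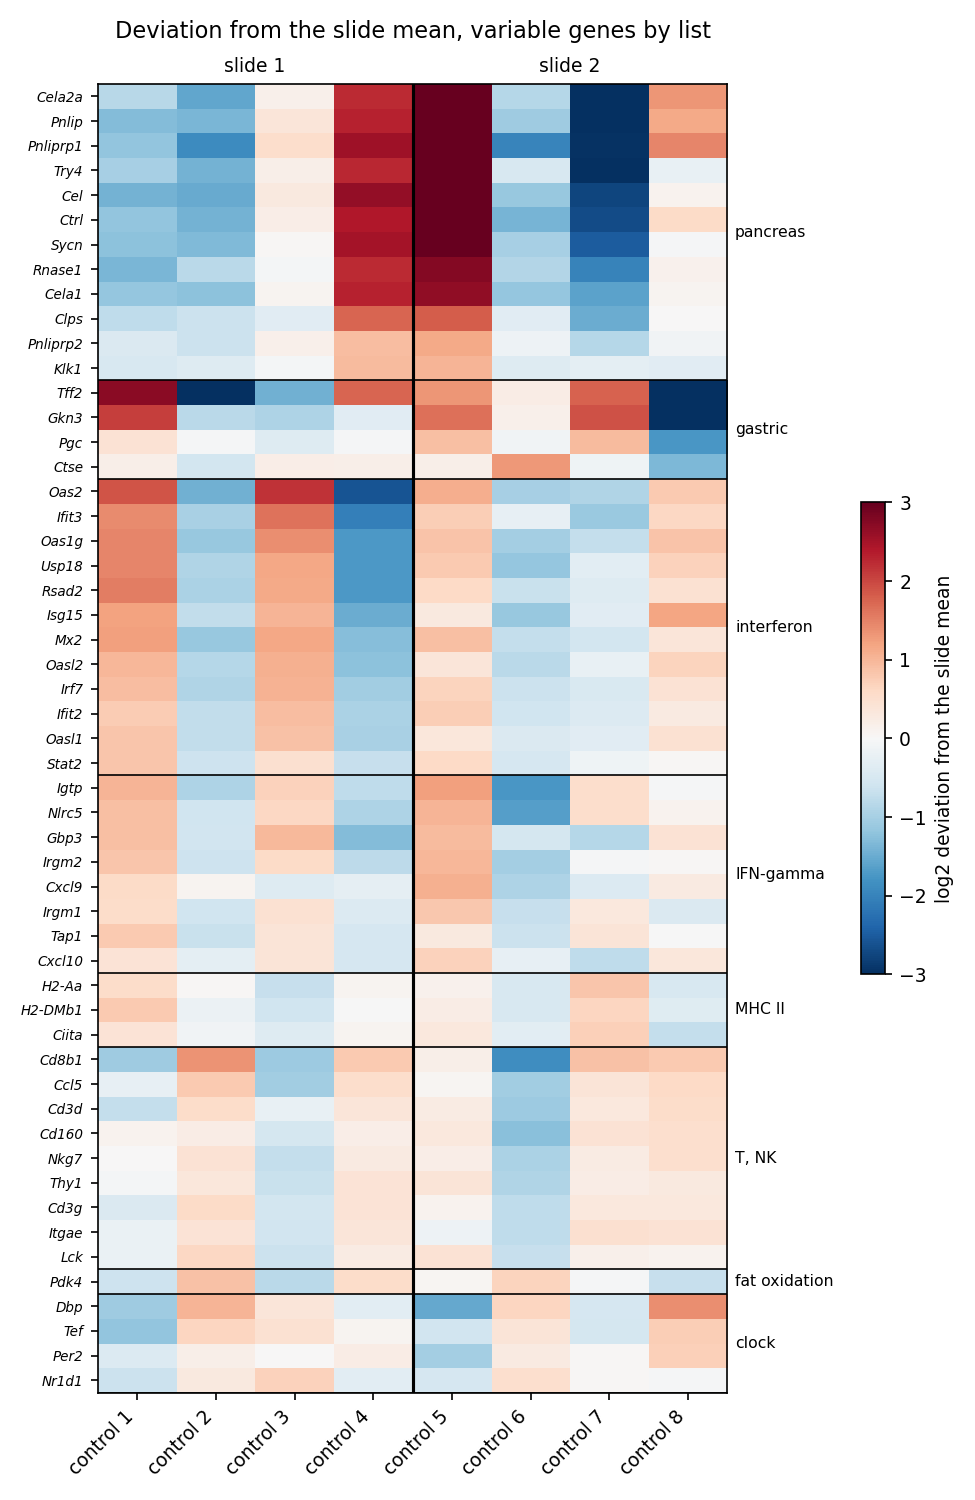
Rows are variable genes of 8 lists, with those not reported here left out, and each column is a control mouse, with slide 1 left of the heavy line. Colour is the log2 deviation from the mean of that mouse's slide, capped at 3 in either direction. Pancreatic genes are highest in controls 4 and 5, interferon genes in controls 1, 3, 5 and 8, and T and NK cell genes are below their slide mean in controls 3 and 6, and 7 of those 9 in control 1 too.

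Variable interferon-stimulated genes were high in the same mice. Type I and III interferons act through transcription factors, STAT2 and IRF9 among them, that bind the interferon-stimulated response element in the promoters of antiviral genes. Of 21 such genes with a probe, 15 were detected on all 8 arrays, with a median SD of 0.974. Of these 15, 12 were variable, against 3.39% of all expressed probes. Oas2, a sensor enzyme that makes 2′,5′-linked oligoadenylate, read 9.42, 6.08, 9.70, 4.94, 8.89, 6.80, 6.90 and 8.57 in controls 1 to 8 (SD 1.86). Ifit3, which belongs to a family that binds viral RNA, read 11.34, 8.95, 11.55, 7.87, 10.84, 9.85, 9.0 and 10.71 (SD 1.42). In both, controls 1 and 3 were above controls 2 and 4, and controls 5 and 8 above controls 6 and 7, with no overlap between those values.

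All 12 variable members had exactly controls 1, 3, 5 and 8 above the mean of their slide. Control 7 was below control 6 in Ifit3 and above it in the other variable members. Usp18, which removes the ubiquitin-like modifier ISG15 from proteins, read 11.84, 9.47, 11.56, 8.67, 11.37, 9.42, 10.27 and 11.28 in controls 1 to 8 (SD 1.28). Rsad2, the antiviral enzyme viperin, read 11.67, 9.20, 11.28, 8.41, 11.25, 9.99, 10.28 and 11.13. For Isg15 itself the highest slide-adjusted value was 6.5 times the lowest, and for Irf7, a transcription factor of the interferon response, 4.3 times. The variable members ran from Stat2 (SD 0.631) to Oas2. Irf9 and Zbp1 were among the members below the limit. The mean slide-adjusted level of the list was 9.77, 7.96, 9.74, 7.52, 9.33, 8.09, 8.35 and 9.22.

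The promoters of the variable members were searched for the core of the interferon-stimulated response element, because these genes moved together. The motif searched was GAAANNGAAA on either strand, with overlapping matches counted, in RefSeq promoter windows of 300 bases (250 before to 50 after the start, build GRCm38.p6). Of the 12 variable members, 9 had a window and 5 of those held the motif (55.6%). Of the 21 list members on the array, variable or not, 14 had a window and 8 of those held it (57.1%). Of 27025 genes with a window, 1079 held it (3.99%), as did 200 of 5487 expressed genes (3.64%) and 19 of 187 variable genes (10.2%). Over all 32851 windows the share was 3.44%. A match is a description of these letters and not a site shown to be bound. The 100-base stretches of the 5 genes are printed 5′ to 3′ on the strand of the gene, with motif letters in capitals, to show the number and spacing of the matches.
Ifit3, chr19:34583345-34583444, plus strand: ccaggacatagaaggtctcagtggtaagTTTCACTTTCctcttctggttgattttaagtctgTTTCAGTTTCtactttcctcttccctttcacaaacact
Isg15, chr4:156200836-156200935, minus strand: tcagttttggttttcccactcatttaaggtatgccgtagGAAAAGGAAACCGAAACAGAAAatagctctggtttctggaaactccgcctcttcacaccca
Oas1g, chr5:120887614-120887713, minus strand: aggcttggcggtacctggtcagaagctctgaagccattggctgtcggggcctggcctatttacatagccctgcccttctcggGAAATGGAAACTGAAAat
Rsad2, chr12:26456518-26456617, minus strand: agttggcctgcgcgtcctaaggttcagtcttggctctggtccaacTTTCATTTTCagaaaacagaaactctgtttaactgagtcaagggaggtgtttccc
Stat2, chr10:128270248-128270347, plus strand: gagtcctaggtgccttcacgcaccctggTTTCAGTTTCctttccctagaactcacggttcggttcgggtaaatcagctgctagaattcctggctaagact

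Isg15 held 3 overlapping matches and Oas1g 2 overlapping ones, while Ifit3 held 2 that were apart. Rsad2 and Stat2 held 1 each. The windows of Irf7, Oasl1, Oasl2 and Ifit2, which were also variable, held none.

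Over all expressed probes, 219 (2.41%) had exactly controls 1, 3, 5 and 8 above the mean of their slide, and among the 308 variable probes 46 had this pattern (14.94%). Apart from the interferon list these included Apol9b, Dhx58, an RNA helicase of antiviral sensing, Phf11d, Oas3 and Trim30a, of which the last 2 were named after their values were seen. Dhx58 read 9.36, 6.59, 9.25, 6.26, 9.09, 7.81, 7.74 and 9.07 in controls 1 to 8. On slide 1 the order with controls 1 and 3 both above controls 2 and 4 was common among all probes (25.5%), as was its reverse (24.6%). Among variable probes these shares were 35.1% and 38.3%.

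Genes that interferon-gamma induces shared this pattern in part. Of 20 with a probe, 17 were detected on all 8 arrays and 8 were variable, against 3.39% of all expressed probes. Igtp, an immunity-related GTPase that guards against intracellular parasites, read 11.48, 9.51, 11.13, 9.69, 12.55, 9.58, 11.86 and 11.30 in controls 1 to 8 (SD 1.14). Nlrc5, the activator of MHC class I genes, read 7.37, 5.85, 7.07, 5.52, 8.08, 5.42, 7.59 and 7.17 (SD 1.04). In both, control 6 was the low mouse of slide 2 and control 7 was above the slide mean, as also for Irgm1 and Tap1. Gbp3, Irgm2 and Cxcl10 instead had exactly controls 1, 3, 5 and 8 above their slide mean, as the interferon-stimulated genes above did. Gbp3, a guanylate-binding protein, read 8.68, 7.20, 8.76, 6.48, 8.32, 6.86, 6.52 and 7.82 in controls 1 to 8 (SD 0.99), with control 7 the lowest of slide 2. Cxcl9, the last of the 8, had controls 1, 2, 5 and 8 above. Without background correction 4 of the 17 were variable, and 3 in the authors' deposited processed values.

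Genes of MHC class II presentation had another order of mice. All 8 listed genes had a probe, 7 were detected on all 8 arrays and 3 were variable, against 3.39% of all expressed probes. H2-DMb1, which helps load peptides onto class II molecules, read 10.08, 9.13, 8.72, 9.30, 10.78, 10.08, 11.20 and 10.19 in controls 1 to 8 (SD 0.548). Ciita, the master activator of class II genes, read 6.90, 6.38, 6.09, 6.57, 7.77, 7.11, 8.15 and 6.72 (SD 0.515). Control 1 was highest on slide 1 and control 7 on slide 2 for both, as for the third variable member, H2-Aa. The mean slide-adjusted level of the list was 11.13, 10.60, 10.04, 10.75, 10.87, 10.22, 11.16 and 10.27. Without control 7, 1 member was variable, and none was without background correction or in the authors' deposited processed values. Ubd, a ubiquitin-like protein that interferon-gamma induces, was outside these lists and read 9.86, 8.16, 9.68, 9.64, 10.59, 6.86, 11.32 and 10.38 (SD 1.52).

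T and NK cell genes were low in controls 3 and 6 and mostly in control 1. Of 18 with a probe, 14 were detected on all 8 arrays, with a median SD of 0.536. Of these 14, 9 were variable, against 3.39% of all expressed probes. Cd8b1, the beta chain of the CD8 coreceptor, read 5.54, 7.96, 5.53, 7.40, 7.75, 5.70, 8.45 and 8.35 in controls 1 to 8 (SD 1.27). Ccl5, a chemokine of intraepithelial T cells, read 10.17, 11.20, 9.36, 10.95, 9.42, 8.30, 9.73 and 9.95 (SD 0.782). Cd3d, a chain of the T cell receptor complex, read 7.08, 8.34, 7.56, 8.16, 8.46, 7.13, 8.52 and 8.75 (SD 0.661). Controls 2 and 4 were above controls 1 and 3 on slide 1, and control 6 was the lowest of slide 2, in all 3. All 9 variable members were below their slide mean in controls 3 and 6 and 7 of them in control 1, the exceptions being Cd160 and Nkg7. Cd160, a receptor of NK and intraepithelial T cells, read 6.32, 6.45, 5.67, 6.40, 7.33, 5.77, 7.47 and 7.53 (SD 0.647). The pattern with exactly controls 2, 4, 5, 7 and 8 above their slide mean was held by 46 of all expressed probes (0.506%) and by 16 of the 308 variable ones (5.19%). Besides T cell list members these were probes of Cd6, Gzmk, Ccl4 and others, named after their values were seen. Without control 6 only 2 list members were variable, 2 were without background correction, and 1 was in the authors' deposited processed values.

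**Figure D4:**
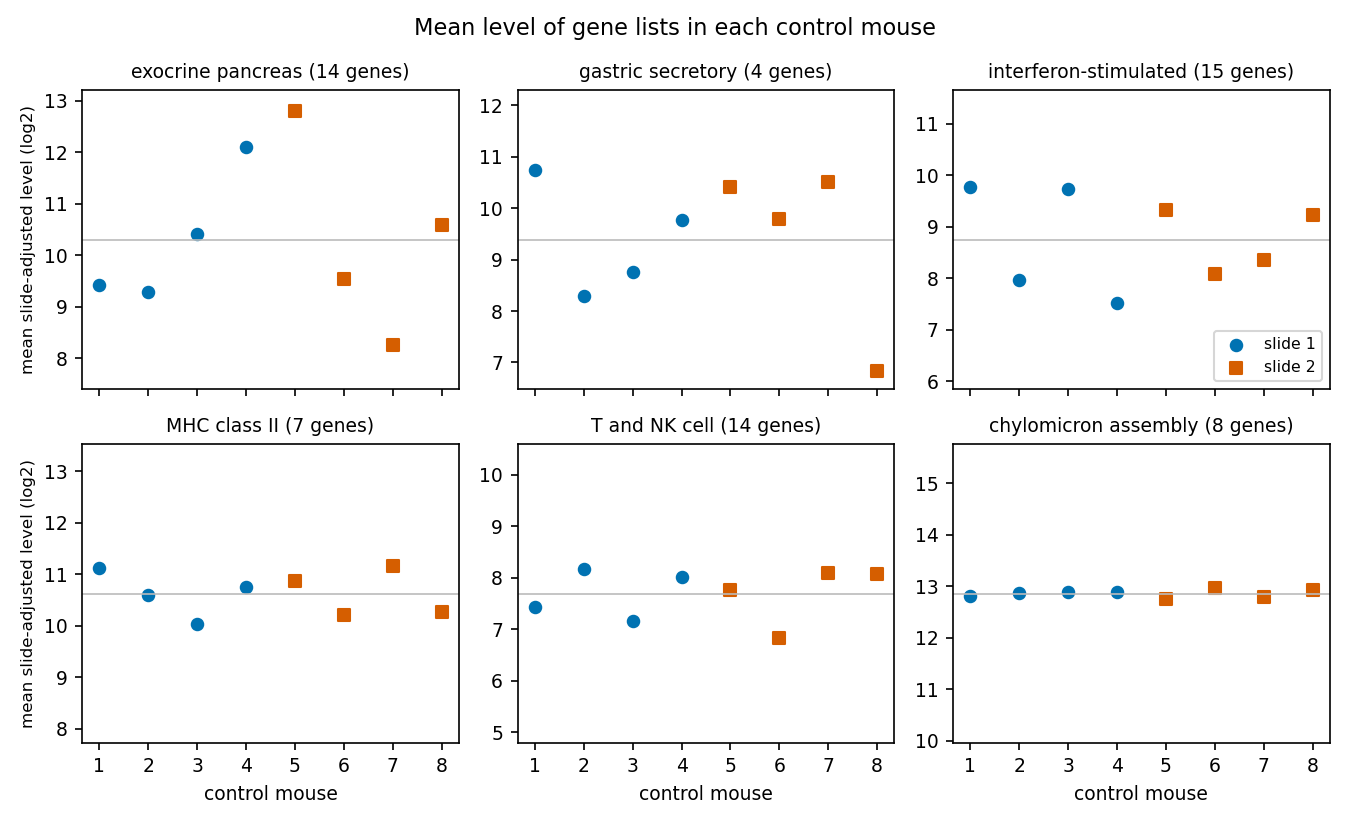
Each panel gives, for 1 gene list, the mean slide-adjusted level (log2 normalized signal) of its members detected on all 8 arrays in each control mouse. Circles are slide 1, squares are slide 2, the grey line is the mean of the 8 mice, and all panels span the same number of log2 units. The pancreatic list runs from 8.26 to 12.80 and the gastric list from 6.84 to 10.73, while the chylomicron list stays between 12.75 and 12.96.

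Some antimicrobial genes of the epithelium differed between mice. Of 14 genes in the list of epithelial antimicrobial and acute phase genes with a probe, 4 were detected on all 8 arrays. Reg3b and Reg3g were variable, while Reg3a (SD 0.366) and Reg1 (SD 0.034) were not. Quantile normalization held Reg1 equal on slide 2. Reg3b and Reg3g encode secreted lectins that act on bacteria. Reg3g read 7.34, 5.68, 9.11, 6.78, 6.61, 5.09, 6.89 and 7.66 in controls 1 to 8 (SD 1.27), and Reg3b read 12.79, 12.14, 14.23, 11.80, 12.31, 12.11, 12.81 and 14.01 (SD 0.969). Control 3 was the highest mouse of slide 1 and control 8 that of slide 2 in both. Of 9 Paneth cell genes with a probe, 8 were detected on all 8 arrays and 3 were variable, against 3.39% of all expressed probes. The 3 were Reg3g, Ang4 (SD 0.717) and Defa5 (SD 0.689). Ang4, an angiogenin that acts on bacteria, read 9.04, 9.74, 8.74, 8.90, 10.03, 10.44, 8.45 and 9.02 in controls 1 to 8, highest in control 2 on slide 1 and in controls 5 and 6 on slide 2. Defa5, a defensin, read 9.98, 10.49, 9.66, 9.64, 10.06, 8.82, 7.96 and 9.41, with control 7 the lowest. No Paneth cell gene was variable in the authors' deposited processed values. Lyz1, lysozyme, was bright and even in its brightest probe (13.84 ± 0.248), while another of its probes had an SD of 1.00.

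Clock output genes also differed between mice. Of 17 circadian genes with a probe, 10 were detected on all 8 arrays and 4 were variable, against 3.39% of all expressed probes. Dbp, a transcription factor driven directly by the clock, read 6.35, 8.45, 7.79, 7.10, 6.61, 8.80, 7.65 and 9.55 in controls 1 to 8 (SD 1.11). Tef, its relative, read 5.95, 7.79, 7.59, 7.22, 6.20, 7.16, 6.24 and 7.52 (SD 0.748), and Per2 read 6.83, 7.43, 7.27, 7.48, 6.45, 7.74, 7.49 and 8.17 (SD 0.557). Control 1 was the lowest mouse of slide 1 and control 5 that of slide 2 for all 3, as for the fourth variable member, Nr1d1. Among the activators of the clock, Npas2 (SD 0.468), named after its values were seen, was highest in these same mice, at 7.19 in control 1 and 7.32 in control 5 against 6.14 to 7.02 in the other 6. Clock, the brightest member, read 8.86, 9.17, 9.09, 9.24, 9.23, 9.34, 9.25 and 8.94 (SD 0.169) and was not highest in them, with control 1 the lowest of slide 1. Without control 5, 2 members of the list were variable, 1 was without background correction, and none was in the authors' deposited processed values. The hour at which each mouse was killed is not stated in the labels.

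Among genes of fatty acid oxidation, 2 of the 12 detected on all 8 arrays were variable, against 3.39% of all expressed probes. Of these 2, Pdk4, a kinase that restrains glucose oxidation in fasting, read 8.27, 9.79, 8.09, 9.44, 8.71, 9.31, 8.60 and 7.96 in controls 1 to 8 (SD 0.712). Controls 2 and 4 were above controls 1 and 3, and control 6 was the highest of slide 2. Angptl4, a fasting-induced inhibitor of lipoprotein lipase that was named after its values were seen, read 9.48, 10.62, 8.61, 10.47, 8.89, 9.88, 9.49 and 8.71. Hba-a1, the haemoglobin alpha chain and the only red cell gene on all 8 arrays, read 10.82, 10.45, 10.91, 10.03, 12.13, 11.83, 10.28 and 11.11 (SD 0.647).

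Of the 47 lists, 6 had a median SD of 0.5 or more over their members detected on all 8 arrays. They were the exocrine pancreas, gastric, interferon, antimicrobial, T and NK cell and red cell lists, the last with 1 member. Over all expressed probes 308 of 9098 (3.39%) were variable, a share at which a short list would often hold none. In 26 lists no member detected on all 8 arrays was variable. These included the ribosomal, respiratory chain, proteasome, hydrolase, sugar, amino acid, triglyceride, chylomicron, sterol, bile acid, detoxification and cholesterol synthesis lists, and those for goblet, stem, dividing, myeloid, muscle, nerve, stromal, endothelial and liver cells.

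Another pattern of mice was also present among the variable probes. Exactly controls 2, 4, 7 and 8 were above their slide mean for 221 of all expressed probes (2.43%) and for 30 of the 308 variable ones (9.74%). Its members were named after their values were seen and were not tested for a shared function. Vti1b, a vesicle fusion protein, read 9.27, 11.25, 9.35, 11.32, 9.67, 9.91, 11.51 and 11.50 in controls 1 to 8, and Bax, a promoter of cell death, read 6.51, 8.23, 6.21, 8.45, 6.65, 7.13, 8.31 and 8.60. In both the 4 high values lay apart from the 4 low ones. The opposite pattern, with controls 1, 3, 5 and 6 above, was held by 163 probes of all (1.79%) and by 15 of the variable ones (4.87%), among them Ap2b1 and Pigt. Controls 1 to 4 lay at positions A, B, C and D of slide 1 and controls 5 to 8 at positions A, C, D and F of slide 2, so the first set is every second position of a slide, and the 2 sets and these positions cannot be told apart.

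The 2 slides gave separate sets of mice in which to look at the same spread. Of the 100 probes with the largest SD over the 4 mice of slide 1, 82 lay in the top 5% by SD over the 4 other mice of slide 2. Their median SD there was 0.764, against 0.203 over all expressed probes. In the reverse direction 74 of 100 lay in the top 5%, with a median SD of 0.846 against 0.176. Both top sets shared 54 probes. With the probes of the pancreatic, gastric, interferon and interferon-gamma lists left out, a choice made after seeing the data, the counts were 66 and 57. Cela2a had SDs of 3.39 on slide 2 and 1.65 on slide 1, and Oas2 had 1.09 on slide 2 and 2.39 on slide 1, so the genes were variable on both slides while the size of their spread was not equal.

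**Figure D5:**
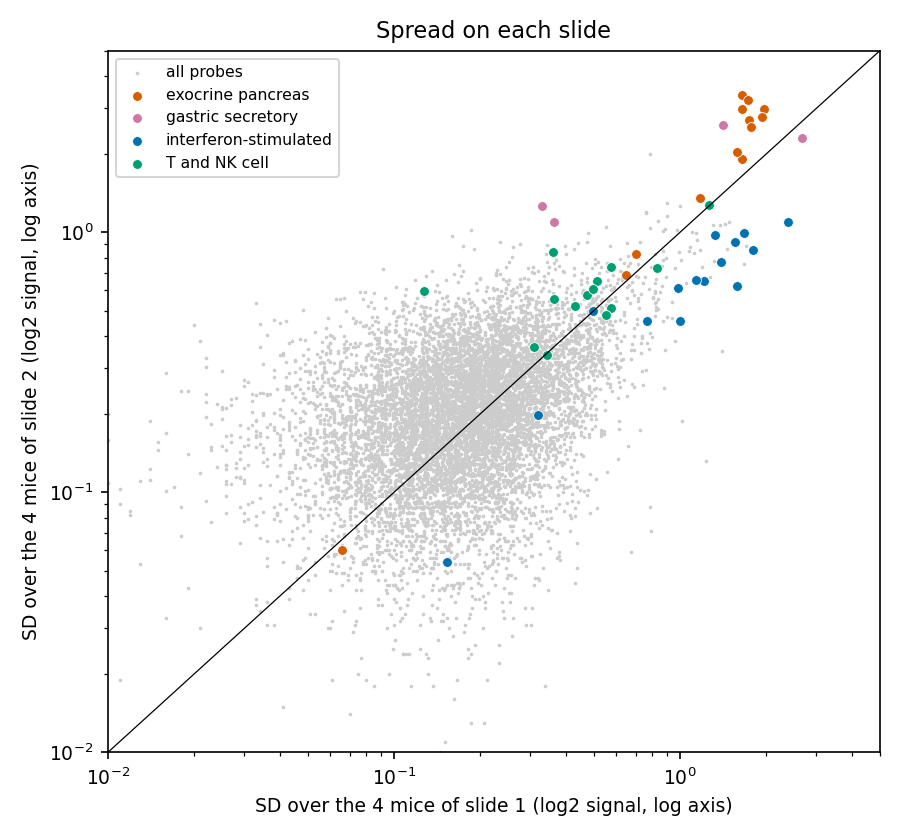
Each expressed probe is a grey point at its SD over the 4 control mice of slide 1 (x) and of slide 2 (y), in log2 units on log axes, with the line of equal SD. Coloured points are 4 gene lists. Of the 100 probes furthest right, 82 lie in the top 5% on the y axis.

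The slides themselves differed. After quantile normalization 4289 of 9098 expressed probes (47.1%) passed limma's test of slide 2 against slide 1 (Benjamini-Hochberg adjusted p under 0.10), 2453 higher and 1836 lower on slide 2, and 4349 had an unadjusted p under 0.05. The median difference over all expressed probes was 0.10 on the log2 scale, slide 2 minus slide 1. With scaling to a common median in place of quantiles it was -0.56, and 25 probes were higher and 6311 lower on slide 2. In the authors' deposited values, which they had corrected for batch, limma called 0 probes and 211 had an unadjusted p under 0.05. A slide and the mice on it cannot be told apart.

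The largest differences between slides were often those of 1 probe of a gene. Ccl25, the chemokine that draws lymphocytes to the small intestine, averaged 10.30 on slide 2 and 12.42 on slide 1 at one probe (difference -2.12, SE 0.149, adjusted p 1.59e-05 in limma, n = 4 mice each). At its other probe it averaged 12.20 on slide 2 and 12.41 on slide 1 (difference -0.21, adjusted p 0.0735). Arl5a, a small GTPase, averaged 5.83 on slide 2 and 8.08 on slide 1 at one probe (difference -2.25, adjusted p 2.60e-05 in limma), and its other probes differed by -0.81 and -0.56. Among probes that were higher on slide 2, those of Actb, the beta-actin gene, differed by 1.47, 1.20, 0.61, 0.44 and 0.18, the first 4 past the threshold. With median scaling these were 0.77, 0.51, 0.12, -0.01 and -0.46, so the direction turned for 2 of them. Of the 308 variable probes, 46 (14.9%) passed the slide test, 26 higher and 20 lower on slide 2, against 47.1% of all expressed probes. The spread that defines a variable probe also enters the error of the slide test. A lower share therefore follows from the choice of probes and does not show a smaller slide difference. Among the variable genes above, Gkn3 (difference 3.28, SE 1.08, adjusted p 0.0338) and H2-DMb1 (1.26, SE 0.293, adjusted p 0.00729) were higher on slide 2 in limma, and by 2.62 and 0.56 with median scaling. Ciita (0.95), Pgc (1.16), Hba-a1 (0.79), Tap1 (0.83) and Ccl4 (0.94) also passed as higher on slide 2, and Klk1 (-1.12), Ccl5 (-1.07) and Defa5 (-0.88) as lower. Median scaling moved the median difference over all expressed probes from 0.10 to -0.56. With it the higher ones of these 8 had differences of 0.08 (Tap1) to 0.50 (Pgc). The lower ones had -1.85 (Klk1) to -1.60 (Defa5), further in the direction of that shift, so it could not turn them. Gbp2 and Wfdc2, which were higher on slide 2, and Psme2b and Mettl7b, which were lower, were also among the 5 largest differences in each direction.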

How the data were processed

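Proximal small intestine of 13 mice was measured on 1-colour bead arrays, and the 8 control arrays are described. The main deposited table was not normalized: per the file headers it gives each probe's average bead intensity, a linear signal, and beside it a detection p-value. A second deposited table holds intensities that the authors, per the series' design text, had quantile-normalized and corrected for batch with Combat. The software behind the export is not given in the sources used for this work.

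With neqc of limma 3.58.1 (R 4.3.3), background was removed by normexp using the detection p-values, 16 was added, and the 13 arrays were quantile-normalized together and turned to log2. Slide and position were read from the column names. The SD was that of a model with slide, with 6 residual degrees of freedom. Slides were compared by limma's lmFit and trended eBayes over all 9098 probes detected on all 8 arrays. Tables were handled with Python 3.11.15, pandas 2.3.3 and numpy 2.4.6. No group comparison was made. P-values between slides test the difference of the slide means against the spread between mice within slides, with 4 arrays each.

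Names were updated from a RefSeq gene table: 20439 probes were already current, 4134 changed by synonym and 132 by gene ID, 972 kept the file's name and 20 had none. Gene lists use the brightest probe of a gene, which also sets which probe a list reports where probes of a gene disagree. The members and the 47 lists were chosen with earlier results of these data known. Named genes were the 20 highest levels, the 30 largest SDs on all 8 arrays, the 10 smallest SDs in the highest of 4 equal groups by level, the 10 largest SDs on 4 to 7 arrays, the 5 largest slide differences in each direction, per list the brightest and most variable members and up to 4 more past an SD of 0.5, and the segment, stomach and sex-linked lists. Some of these genes are not reported here. Alternatives were normalization of the controls alone, no background correction, an offset of 50, median scaling, the deposited values, other detection filters, other measures of spread, other settings of the slide test, a mean per gene in place of its brightest probe, and each array left out in turn.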

Additional observations from a re-analysis of the deposited data

Results flagged for a closer look

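For 14 of 243 probes of named genes that were detected on at least 1 array, 1 mouse stood further from the other 7 than Dixon's limit for groups of 8 allows, after slide means were taken out. Chance gives this in about 1 in 20 groups of independent values. Slide-adjusted values are not independent, because a far value also moves its slide's mean, so that share does not hold here. Of all 9098 expressed probes, 217 (2.39%) passed the limit. In 4 of the 14 probes control 6 was far above the rest. LOC100041004 had a slide-adjusted level of 11.8 in control 6 against at most 6.76 in the other 7 mice. Gkn2 had 10.04 against at most 5.26, Gkn1 had 9.72 against at most 5.40 and Muc5ac had 6.68 against at most 4.78. Control 7 was high for Ddx3y (9.83, next 9.39) and low for Psmd14 (5.51, next 6.23). Control 8 was low for 1 probe of Clock, at 4.45 with the next mouse at 4.94. A further 4 were dim probes detected on 1 to 3 arrays: Acsl3 at 5.13 in control 7 (next 4.78), 1 probe of Per2 at 5.14 in control 6 (next 4.73), Sox2 at 5.03 in control 8 (next 4.62) and Xist at 4.89 in control 7 (next 4.52). The other 3 were among the highest levels and small in size: Atp5g3 at 14.62 in control 2 (next 14.46), Ckmt1 at 14.57 in control 4 (next 14.45) and Reg1 at 14.71 in control 3 (next 14.77).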

How the results depend on the processing

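No paired analysis was possible because only control mice were described and no groups were compared. The number of probes with an SD of 0.5 or more (308) was 93 without background correction, 148 with an offset of 50, 49 in the deposited processed values, 464 without a detection filter and 961 without a slide term, and 272 to 340 when an array was left out. The median SD (0.203) was 0.119 without background correction, 0.149 with an offset of 50, 0.25 with median scaling, 0.0801 in the deposited values and 0.173 without a filter, and 0.197 to 0.208 when an array was left out. The slide difference (4289 probes) ran from 3530 to 4117 when an array was left out and was 0 in the deposited values, where 211 had an unadjusted p under 0.05. The detection count was 9114 to 9363 when an array was left out. The repeat between slides was 68 to 86 from slide 1 and 63 to 73 from slide 2. The number of lists with a median SD of 0.5 or more (6) was 3 without a filter, and 5 to 8 when an array was left out. The number of the 20 highest genes that stayed was 19 to 20. The other settings kept these counts within 1.5 times. Leaving out controls 4 and 5 gave 386 variable probes, leaving out controls 4, 5 and 7 gave 442, and leaving out controls 6 and 8 gave 297. Leaving out the probes of the pancreatic, gastric, interferon and interferon-gamma lists gave 262. These were chosen after seeing the data. Of the 79 named probes with an SD of 0.5 or more, 35 were so in every setting that kept them, and of the 132 below it 125 stayed below. The neuron and glia list had no value at a detection p under 0.01. The causes were not tested. Signal near background limits the SD of dim probes, and 6 degrees of freedom limit every SD.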

Other observations

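Probes in 2 further patterns of mice were counted. Exactly controls 2, 4, 6 and 7 were above their slide mean for 13 of the 308 variable probes (4.22%) and 238 of all expressed probes (2.62%), with Angptl4 and Irs2, a transducer of insulin signals, among the variable ones. Exactly controls 1, 3, 5 and 7 were above for 12 variable probes (3.9%) and 322 of all (3.54%), among them Irgm1, Igtp and Tap1, and Ltf, lactoferrin.

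The ezetimibe arrays of slide 2 lay at positions B, E and G, with 1 mouse at each. Of the 30 variable probes that were higher at the even positions of the controls (median difference between even and odd 0.94), the array at B was above those at E and G for 1, below both for 18 and between them for 11, with a median difference of -0.32. Over all 221 expressed probes of this pattern these counts were 55, 99 and 67, with a median difference of -0.08. Of the 15 that were lower at the even positions, the array at B was on the same side as the controls for 5, on the opposite side for 6 and between for 4, and over all 163 expressed probes of that pattern these counts were 60, 64 and 39. Probes of a pattern move together and are not separate readings of a position. With 1 array at each position, position and mouse cannot be told apart, and no cause was tested.

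Control 8 was the highest mouse for 55 of the 308 variable probes and control 7 the lowest for 66, the largest counts of the 8 mice in each direction. Over all 9098 expressed probes the order differed: control 7 was most often the highest (1452, against 1118 for control 8) and control 6 most often the lowest (1379, against 1222 for control 7).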
